A study of Sus scrofa with 16 samples.

Results

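Glycolysis splits glucose into pyruvate in the cytosol, and lactate dehydrogenase interconverts pyruvate and lactate. Fructose joins the same route after ketohexokinase has phosphorylated it. In liver most of these steps can run in reverse towards glucose, whereas hexokinase, phosphofructokinase and pyruvate kinase work in the direction of glycolysis.

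Levels of 9 enzymes of these pathways were examined in pig liver (Sus scrofa): GPI, TPI1, GAPDH, PGK1, ENO1, PKLR, LDHA, LDHB and KHK. A probe was taken for an enzyme when the scanner files gave it that gene name or when its description held that symbol. This named 28 probes for 6 of the 9 enzymes, out of 4788 gene symbols on the array: 3 for GPI, 5 for TPI1, 1 for GAPDH, 6 for PGK1, 1 for LDHA and 12 for LDHB. By this rule ENO1, PKLR and KHK had no probe and were not analysed here, apart from 2 probes, described at the end of the enzyme results, that the array's annotation matched to PKLR and KHK of other species. So the fructose arm rests on other genes, given with the pathway lists.

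Total RNA came from liver of pigs at 20 kg body weight that were all fed ad libitum. There were 8 low-RFI pigs (strain RFIneg) and 8 high-RFI pigs (strain RFIpl), with 1 single-colour array per pig. RFI is residual feed intake, a pig's feed use beyond the amount predicted from its growth and upkeep, and the strains were selected on it. Age, sex and kinship of the pigs are not given in the labels used here, so p-values measure the spread between these pigs. With 1 strain for each direction, selection and any other difference between the strains cannot be told apart.

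Levels are log2 of the processed signal minus the 75th percentile of that array. Changes are low-RFI minus high-RFI on the same log2 scale, with a 95% confidence interval, and a called probe is one with an adjusted p under 0.05 over all probes tested. A level has no meaning against another probe's level, since probes differ in how brightly they bind. In bulk tissue, fewer cells of a type and less RNA per cell cannot be told apart.

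Well above background were 28576 to 34977 probes of an array. Its 75th percentile of signal lay between 320.0 and 508 units, and its median local background between 29 and 40 units. None of these measures, nor the noise of repeated spots, differed between the lines past the threshold (4 exact permutation tests, two-sided, with 12870 splits each, p = 0.320 to 0.948). The array of high-RFI replicate 6 stood at the edge of all 3 ranges, with 34977 probes well above background, the lowest 75th percentile and the highest background. The changes of GPI, PGK1, LDHA and the pyruvate kinase probe, the called pairs and the relations with array and marker measures are also given without it. All 7 measured hepatocyte markers, ALB, APOA1, APOB, HP, SERPINA1, TF and TTR, were well above background on all 16 arrays.

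The probes are 60 bases long and several read the same bases of a transcript. The probe pairs of LDHB and TPI1 shown here are printed because they overlap, with the shared bases in capitals (32 bases in LDHB, 23 in TPI1), and so are not separate evidence. One further probe each of LDHB and GPI, in lower case, is the first of its gene by start position. The probes that represent LDHB, GPI and TPI1 in the results below are others, starting at 1235, 1918 and 991. All sequences are 5′ to 3′ as listed in the scanner files, and each has at least 1 reading frame without a stop codon. The files give their start positions in the target transcript as 752, 780, 468, 505, 323 and 790, in the order printed.
LDHB A_72_P529705: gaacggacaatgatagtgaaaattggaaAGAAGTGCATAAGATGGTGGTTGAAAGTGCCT
LDHB A_72_P321168: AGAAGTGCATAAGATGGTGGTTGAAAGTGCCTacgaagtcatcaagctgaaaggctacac
TPI1 A_72_P303269: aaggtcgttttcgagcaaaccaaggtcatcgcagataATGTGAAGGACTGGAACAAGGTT
TPI1 A_72_P682691: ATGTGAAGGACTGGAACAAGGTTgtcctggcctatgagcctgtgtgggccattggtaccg
LDHB A_72_P611588: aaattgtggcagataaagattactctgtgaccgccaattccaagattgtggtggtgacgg
GPI A_72_P146806: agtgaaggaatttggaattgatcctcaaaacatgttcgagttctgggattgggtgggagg

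Within a gene the probes ranked the pigs alike. Pearson r between probes over the 16 pigs was 0.968 to 0.998 for the 12 LDHB probes, 0.88 to 0.99 for the 5 TPI1 probes, 0.90 to 0.95 for the 3 GPI probes and 0.77 to 0.97 for the 6 PGK1 probes. Among these, LDHB A_72_P007566 and A_72_P551931 hold the same 60 bases, as do TPI1 A_72_P073361 and A_72_P532638. The LDHB twins differed by a median of 0.03 and at most 0.20 within an array, and the TPI1 twins by 0.04 and at most 0.13; these are spots of 1 sequence on the same array. Probes of a gene share its RNA in each pig, so the counts of probes given here are not counts of independent measurements.

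None of the 28 probes was called between the lines (limma with Benjamini-Hochberg adjustment, adjusted p of 0.947 or higher), against 0.00997% of all 30097 probes tested, which is 3 probes. In this fit, which held no block, none had an unadjusted p under 0.05, against 5.45% of all probes. For no probe were the 8 low-RFI pigs separate from the 8 high-RFI pigs, which held for 0.0432% of all probes. The levels were higher in low-RFI liver for 13 probes and lower for 15. With 1 probe per gene, the brightest, 3 of the 6 genes were higher and 3 lower, and their median change was 0.03, beside 0.01 for the 4012 named genes tested. All 28 probes passed the filter on dim probes in every pig, being well above background on all 16 arrays with none saturated.

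**Figure D1:**
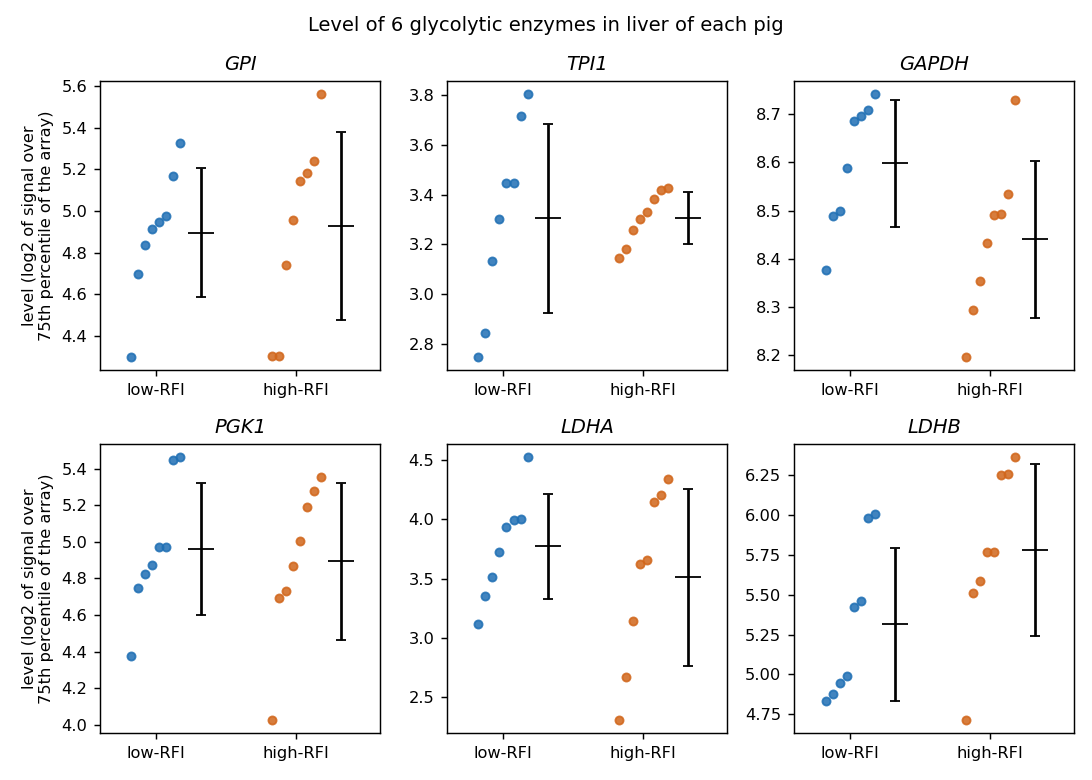
Level of the brightest probe of each of 6 enzymes in the liver of each pig (log2 of signal over the 75th percentile of the array), 8 low-RFI pigs in blue and 8 high-RFI pigs in orange, with the mean and SD of each line in black. The lines overlap in every panel; TPI1 has an SD of 0.38 in low-RFI and 0.10 in high-RFI pigs, and 4 low-RFI pigs lie at the bottom of the LDHB panel with 1 high-RFI pig.

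GPI, glucose-6-phosphate isomerase, turns glucose 6-phosphate into fructose 6-phosphate. Its level ran from 4.30 through a median of 4.93 to 5.33 in low-RFI pigs, and from 4.30 through 5.05 to 5.56 in high-RFI pigs. Both lines covered nearly the same range, with 1 low-RFI pig and 2 high-RFI pigs well below the rest. The change was -0.03 (SE 0.19, 95% interval -0.42 to 0.36, n = 8 and 8, limma adjusted p = 0.997), and -0.12 without high-RFI replicate 6. The other probes of GPI changed by -0.09 and 0.09, so the 3 probes did not share a direction, and scaling to the median of the array instead turned the brightest to 0.0029.

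TPI1, triosephosphate isomerase, interconverts the pair of triose phosphates formed midway through glycolysis. Its level was 2.75 at the lowest, 3.37 at the median and 3.80 at the highest in low-RFI pigs. In high-RFI pigs it was 3.15, 3.32 and 3.42. The lines had the same mean, 3.30 and 3.31, while all 8 high-RFI pigs lay inside the range of the low-RFI pigs. Low-RFI pigs had an SD of 0.38 and high-RFI pigs one of 0.10. Each of the other 4 probes showed the wider spread in the low-RFI line too, with SDs of 0.39 to 0.44 against 0.15 to 0.21; this difference in spread was not tested. The change was -0.00037 (SE 0.14, 95% interval -0.30 to 0.30; 0.035 with median scaling), and the other 4 probes were 0.10 to 0.16 higher in low-RFI pigs (limma adjusted p = 0.981 to 0.989).

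GAPDH, which oxidises glyceraldehyde 3-phosphate and makes the first NADH of the pathway, is often used as a reference gene. Its level was 8.38, 8.64 and 8.74 (lowest, median and highest) in low-RFI pigs and 8.20, 8.46 and 8.73 in high-RFI pigs. In 7 of 8 low-RFI pigs it lay above the high-RFI mean, but the ranges overlapped, with 3 high-RFI pigs below all low-RFI pigs. The change was 0.16 (SE 0.09, 95% interval -0.04 to 0.35, limma adjusted p = 0.969), or 1.12-fold. It varied little between pigs, with an SD of 0.16 over all 16 that was at the 7.85th percentile of the 4012 named genes. A second probe, A_72_P321038, which the array's annotation describes as this enzyme without naming it, followed the first over the pigs (r = 0.87, chosen after its description was read) and differed by 0.24 (95% interval -0.06 to 0.55, limma adjusted p = 0.969).

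PGK1, phosphoglycerate kinase, makes the first ATP that the pathway gains. Its level was 4.37, 4.92 and 5.46 in low-RFI pigs and 4.03, 4.94 and 5.36 in high-RFI pigs (lowest, median and highest). The medians nearly coincide and the lowest value, 4.03, belongs to high-RFI replicate 6. The change was 0.07 (SE 0.19, 95% interval -0.33 to 0.46, limma adjusted p = 0.997). All 6 probes were higher in low-RFI pigs, by 0.04 to 0.23, and none passed the threshold. Without high-RFI replicate 6 the change of the brightest probe was -0.06.

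LDHA encodes the subunit of lactate dehydrogenase that prevails in skeletal muscle. Its level was 3.12, 3.83 and 4.53 in low-RFI pigs and 2.30, 3.64 and 4.35 in high-RFI pigs (lowest, median and highest). The upper parts of the ranges coincide, and the 2 lowest pigs, at 2.30 and 2.67, were high-RFI replicates 6 and 7. The change was 0.26 (SE 0.28, 95% interval -0.34 to 0.86, limma adjusted p = 0.981) and 0.09 without high-RFI replicate 6. Within the 4 slides it was 0.30, -0.02, 0.44 and 0.33. Among the brightest probes of the 6 enzymes LDHA had the widest spread, an SD of 0.61 that was at the 88.3rd percentile of named genes. By the number series of the samples (1 to 8 and 55 to 62, each with 4 pigs of either line), LDHA was 4.07 ± 0.30 (SD, n = 8) in the first and 3.22 ± 0.54 (SD, n = 8) in the second. With that series as a block the limma adjusted p of LDHA was 0.874. Its change of 0.26 cannot move under this block, since each series holds 4 pigs of either line.

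LDHB encodes the subunit that prevails in heart. Its level was 4.83, 5.21 and 6.005 in low-RFI pigs and 4.72, 5.77 and 6.37 in high-RFI pigs (lowest, median and highest). In the low-RFI line 4 pigs lay between 4.83 and 4.99, whereas in the high-RFI line only replicate 7, at 4.72, lay below 5.51. Still, the lines overlapped, with 2 of 8 low-RFI pigs above the high-RFI mean. The change was -0.47 (SE 0.24, 95% interval -0.97 to 0.04, unadjusted p = 0.0676 and adjusted p = 0.948 by limma), which is a ratio of 0.724 with an interval from 0.511 to 1.03. It was the farthest from 0 of the 6 enzymes. All 12 probes were lower in low-RFI pigs, by -0.52 to -0.43, whether they started at base 323 or at base 1235 of the target, and every one of their intervals held 0. Within the 4 slides, each with 2 pigs per line, the change was -0.92, -0.54, 0.39 and -0.79, so slide 3 ran the other way. The SD of 0.55 was at the 84.5th percentile of named genes. This brightest probe had the smallest SD of the 12. The others had SDs of 0.57 to 0.70, some of them above the 0.61 of LDHA. RefSeq's gene table for Sscrofa11.1 holds 2 entries with the symbol LDHB, and whether these probes read 1 or both was not determined.

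**Figure D2:**
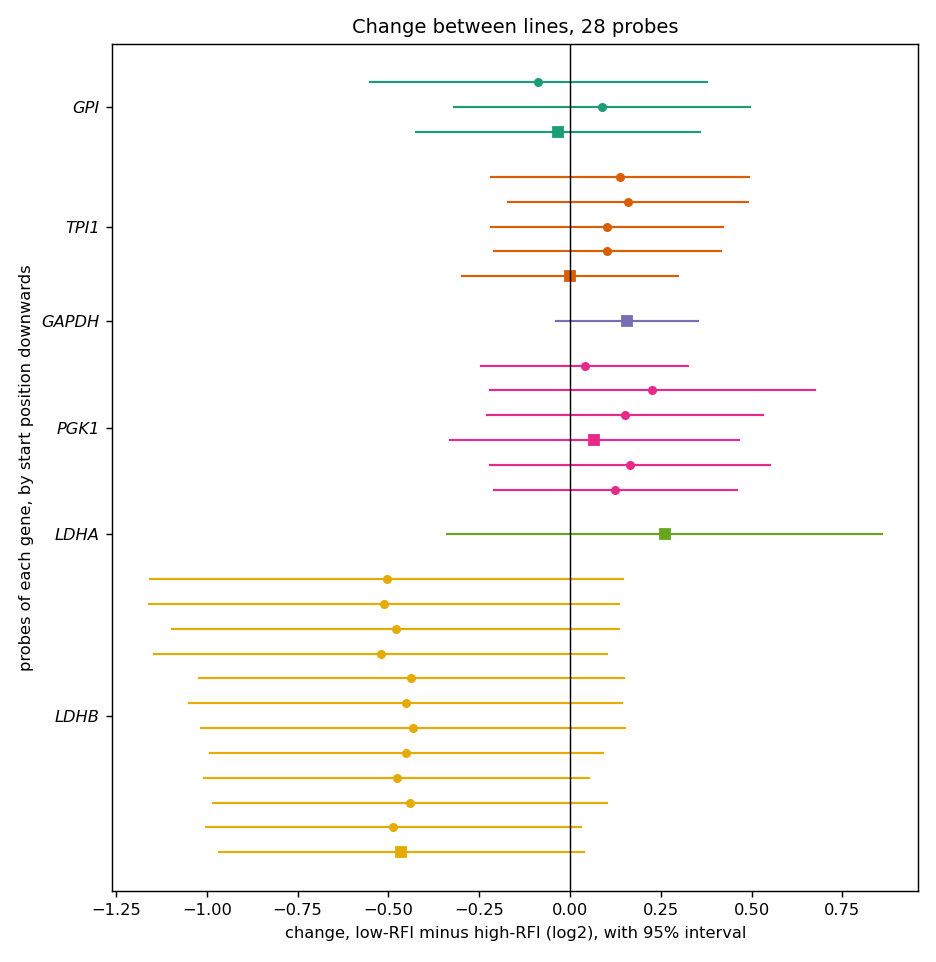
Change between the lines (low-RFI minus high-RFI, log2) of all 28 probes with 95% intervals, in order of their start position within each gene; squares mark the brightest probe of a gene. The 12 LDHB probes lie between -0.52 and -0.43 and the 6 PGK1 probes between 0.04 and 0.23, and every interval crosses 0.

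The probe whose annotation matches bovine ketohexokinase, A_72_P113656, was well above background on all 16 arrays. KHK commits fructose to its breakdown in liver. This probe's level was -1.97, -0.96 and -0.16 in low-RFI pigs and -1.46, -1.07 and -0.29 in high-RFI pigs (lowest, median and highest). The lines overlapped broadly and the change was 0.08 (95% interval -0.42 to 0.58, limma adjusted p = 0.997). The probe matched to zebrafish pyruvate kinase of the liver and red cell type, A_72_P340503, differed by -0.13 (95% interval -0.53 to 0.28, limma adjusted p = 0.990). That difference rests on high-RFI replicate 6: without it the means of both lines were -3.37. These matches cover only part of a transcript, so the genes they read are uncertain.

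Of 36 other genes of glycolysis, glucose uptake and pyruvate handling, 20 were on the array by name and 16 were tested; none was called, with 10 higher and 6 lower in low-RFI pigs and a median change of 0.03. The 3 with the smallest p were SLC2A2, the main glucose transporter of hepatocytes, PDK1, a kinase that inhibits pyruvate dehydrogenase, and PDHA1, a subunit of that complex. SLC2A2 had mean levels of 3.20 and 2.92 in low-RFI and high-RFI pigs, a change of 0.28 (95% interval -0.04 to 0.59, limma adjusted p = 0.960). PDK1 changed by 0.19 (95% interval -0.03 to 0.41, limma adjusted p = 0.969) and PDHA1 by 0.35 (95% interval -0.09 to 0.80, limma adjusted p = 0.969).

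Of 12 other genes of fructose, polyol and glycerol handling, 4 were tested and none was called, with 1 higher and 3 lower and a median change of -0.04. FBP1, which removes a phosphate from fructose 1,6-bisphosphate on the way to glucose, changed by -0.19 (95% interval -0.52 to 0.15). GK, glycerol kinase, changed by 0.27 (95% interval -0.26 to 0.80) and GPD1, glycerol-3-phosphate dehydrogenase, by -0.05 (95% interval -0.34 to 0.24). Of 7 pentose phosphate genes 2 were tested: TKT, transketolase, changed by -0.07 and RPIA, ribose 5-phosphate isomerase, by 0.01, and neither was called.

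Whether the enzymes were high in the same pigs was asked with Pearson's r and Spearman's rho over the 16 pigs for all 15 pairs, with two-sided permutation tests of 100000 resamples adjusted over the 15 pairs. Of the pairs, 13 had r above 0 and the median r was 0.32. Over all 8018010 pairs of named genes tested the median was 0.01, with 50.6% above 0. By the adjusted p, 2 pairs passed, GPI with LDHA and PGK1 with LDHA. Among all pairs of named genes, 3.86% had an r at least as far from 0 as the smaller of these. The count of 2 pairs depended on the scaling: it was 7 with median scaling, 5 with quantile normalisation and 1 with cyclic loess. With levels centred on the slide means and permuted only within slides it was 0, while r of these 2 pairs was 0.74 and 0.66.

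GPI and LDHA were high in the same pigs, with r = 0.76 (permutation p = 0.00057, adjusted p = 0.00855) and rho = 0.75 (permutation p = 0.00138, adjusted p = 0.0207). Of all pairs of named genes, 0.795% had an r as high. High-RFI replicates 6 and 7 were low in both genes, and low-RFI replicate 3 and high-RFI replicate 3 high in both. Without the 2 pigs farthest from the median of GPI, r was 0.88. Without high-RFI replicate 6 it was 0.69 (permutation test, adjusted p = 0.0338). Centred on the line means r was 0.79 (permutation test, adjusted p = 0.0189), and centred on the series of sample numbers 0.72 (permutation test, adjusted p = 0.0108). Centred on the slide means it was 0.74, with p = 0.014 by permutation within slides and an adjusted p of 0.139. Within the high-RFI line r was 0.95 (exact permutation p = 0.000521, adjusted p = 0.00781, n = 8), and within the low-RFI line 0.39 (exact permutation p = 0.333, adjusted p = 0.499, n = 8); the difference between the lines was not tested. One low-RFI pig, replicate 2, had the lowest GPI level of its line, 4.30, with an LDHA level of 3.94, and without it r over the other pigs was 0.91.

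**Figure D3:**
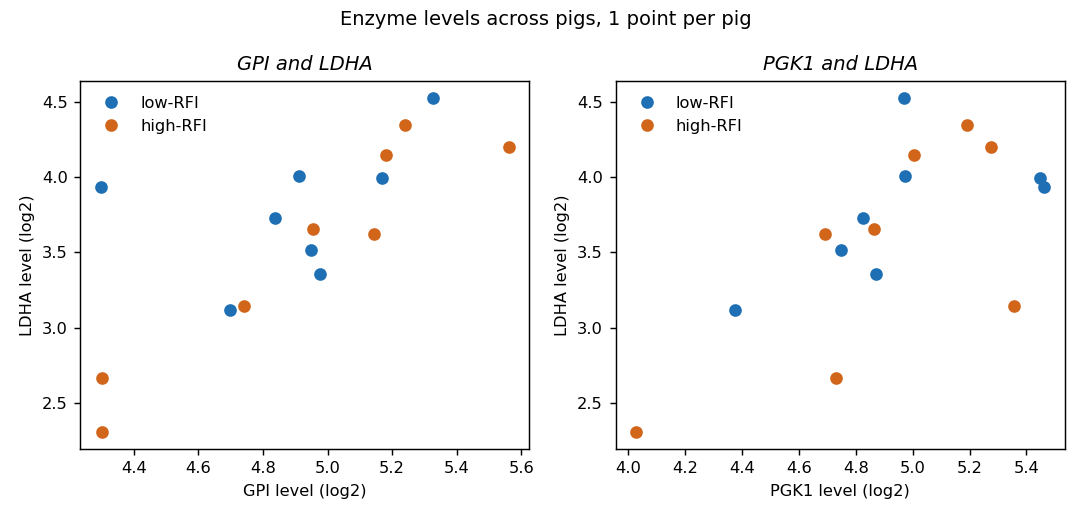
LDHA level against GPI level (left) and against PGK1 level (right), both axes in log2 of signal over the 75th percentile of the array, 1 point per pig, low-RFI in blue and high-RFI in orange. Pearson r is 0.76 on the left and 0.66 on the right; high-RFI replicate 6 is the lowest point of both panels, with LDHA at 2.30.

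PGK1 and LDHA had r = 0.66 (permutation p = 0.00537, adjusted p = 0.0403) and rho = 0.62 (permutation p = 0.0133, adjusted p = 0.0666). The relation rests on few pigs: without the 2 farthest from the median of PGK1, r was 0.37, and without high-RFI replicate 6 alone it was 0.47 (permutation test, adjusted p = 0.204). It was 0.61 within the low-RFI line and 0.70 within the high-RFI line (exact permutation p = 0.102 and 0.0454, adjusted p = 0.445 and 0.254, n = 8 each). Slide-centred levels gave 0.66 (permutation within slides, p = 0.0431, adjusted p = 0.173). Centred on the series of sample numbers r was 0.65 (permutation test, adjusted p = 0.0777), so the pair no longer passed. Centred on the line means it was 0.66 (permutation test, adjusted p = 0.0455).

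Of the other 13 pairs none passed after adjustment. TPI1 and PGK1 had r = 0.57 (permutation p = 0.0217, adjusted p = 0.0871) and rho = 0.66 (permutation p = 0.00607, adjusted p = 0.0455), so that the rank correlation alone passed. With all probes of a gene averaged, r of this pair was 0.77 (permutation test, adjusted p = 0.00375). GPI and LDHB had r = 0.56 (permutation p = 0.0232, adjusted p = 0.0871). The LDHB relations with the middle of the pathway had no common direction: r was 0.02 with TPI1, -0.09 with PGK1 and -0.47 with GAPDH (permutation p = 0.0651, adjusted p = 0.163). LDHA and LDHB themselves had r = 0.28 (permutation p = 0.288, adjusted p = 0.393). The 15 values share 6 genes and 16 arrays, and are not independent of each other.

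**Figure D4:**
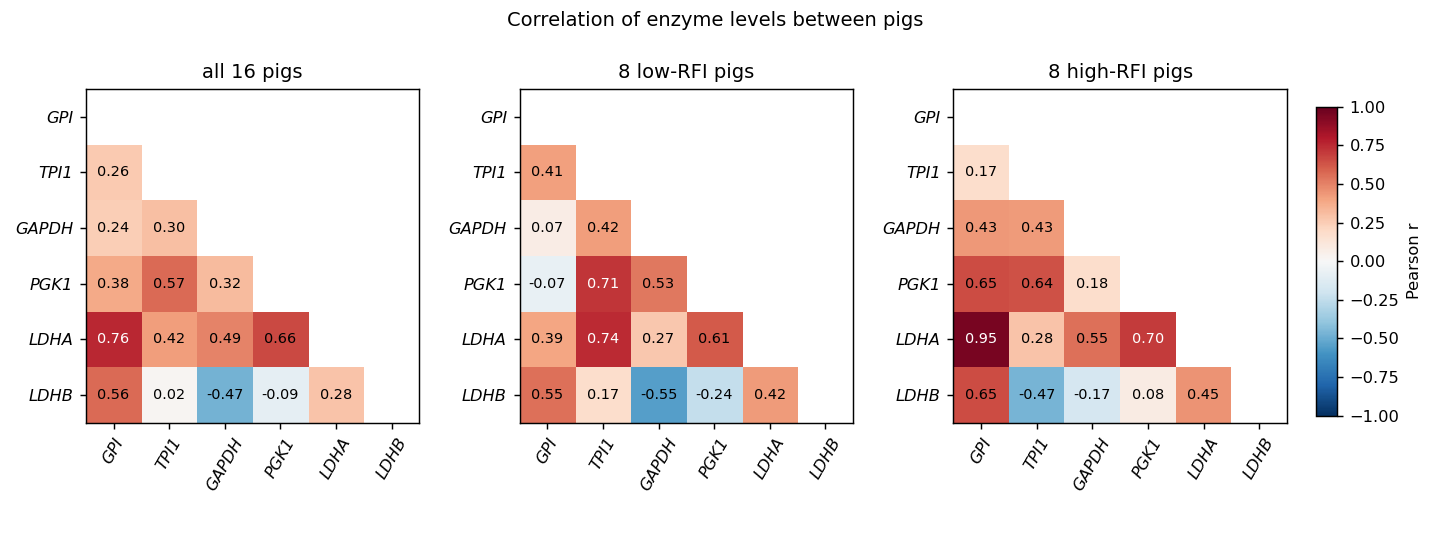
Pearson r of each pair of enzymes over all 16 pigs (left) and within the 8 low-RFI (middle) and 8 high-RFI pigs (right), on a colour scale from -1 (blue) to 1 (red), 1 probe per gene. GPI with LDHA is 0.76 over all pigs, 0.39 within low-RFI and 0.95 within high-RFI pigs; LDHB with GAPDH is below 0 in all 3 panels.

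Measures of the arrays and of other cell types were set beside the levels as 54 relations, 6 enzymes with 6 marker lists and 3 array measures, chosen after the data were seen. None passed after adjustment over the 54 (two-sided permutation tests), and 12 had an unadjusted p under 0.05. PGK1 was lower on arrays with a higher local background (r = -0.69, rho = -0.70, permutation p = 0.00249, adjusted p = 0.0672), and r was -0.66 without high-RFI replicate 6. Centred on the slide means r was -0.78 (permutation within slides, p = 0.0478, adjusted p = 0.481). LDHA was lower in pigs with higher mean levels of muscle markers (r = -0.71, rho = -0.69, permutation p = 0.00178, adjusted p = 0.0672), and r was -0.50 without the 2 pigs farthest from the median of the markers and -0.55 without high-RFI replicate 6. It was -0.16 within the low-RFI line and -0.85 within the high-RFI line, a difference that was not tested. With the same markers GPI had r = -0.63, PGK1 -0.53, GAPDH -0.52, TPI1 -0.07 and LDHB -0.0018. Without high-RFI replicate 6 these were, in the same order, -0.51, -0.22, -0.47, 0.01 and -0.09. Without the 2 pigs farthest from the median of the markers they were -0.34, -0.10, -0.55, 0.08 and 0.17. Of the 8 muscle markers 5 were tested, and their mean, relative to the average pig, ran from -0.25 to 0.12 in the low-RFI line and from -0.40 to 0.56 in the high-RFI line. LDHB followed the mean of 4 Kupffer cell markers (C1QA, CD14, CD163 and VSIG4, genes of liver macrophages) with r = 0.60 (permutation p = 0.0151, adjusted p = 0.136), and 0.66 without high-RFI replicate 6. That mean ran from -0.79 to 0.78 in the low-RFI line and from -0.46 to 0.56 in the high-RFI line, and its part in the LDHB levels was not tested. The relation was not particular to Kupffer cells: LDHB had r = 0.47 with T and NK cell markers, 0.47 with endothelial and -0.47 with hepatocyte markers. Without high-RFI replicate 6 these were 0.49, 0.49 and -0.51. Smaller unadjusted p belonged to TPI1 with local background (r = -0.60, permutation p = 0.0127) and LDHA with endothelial markers (r = 0.60, permutation p = 0.0135), among others. For TPI1 and LDHA these r were -0.60 and 0.63 without high-RFI replicate 6.

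None of the marker genes was called between the lines. In low-RFI pigs 7 of 7 hepatocyte, 6 of 6 T and NK cell, 4 of 6 endothelial, 2 of 4 Kupffer cell, 2 of 5 muscle, 1 of 6 stellate cell and 1 of 1 erythroid markers were higher, at median changes of 0.08, 0.21, 0.09, -0.05, -0.07, -0.16 and 0.00. The level of the last probe of a gene minus that of its first, a check on RNA integrity added after the data were seen, differed between the lines by 0.05 for GPI, -0.14 for TPI1, 0.08 for PGK1 and 0.04 for LDHB (exact two-sided permutation p = 0.0876 to 0.674).

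The changes of LDHA and LDHB had opposite signs and neither was called; the levels of both were compared within each pig, a choice made after these changes had been seen. LDHA minus LDHB was -2.47, -1.55 and -0.90 in low-RFI pigs and -3.47, -2.30 and -1.16 in high-RFI pigs (lowest, median and highest). Its absolute size has no meaning, since it sets 1 probe against another, but it can be compared between pigs. The lines overlapped, and 7 of 8 low-RFI pigs lay above the high-RFI mean. The mean was -1.54 ± 0.50 (SD, n = 8) and -2.27 ± 0.70 (SD, n = 8), a difference of 0.73 (exact two-sided permutation p = 0.0312). It was 1 of 15 such differences between the 6 enzymes, of which 2 had a p under 0.05 and none after adjustment over the 15 (adjusted p = 0.288 by the exact permutation test). Without high-RFI replicate 6 the difference was 0.55 (exact permutation p = 0.0618). Within the 4 slides it was 1.21, 0.52, 0.05 and 1.12.

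**Figure D5:**
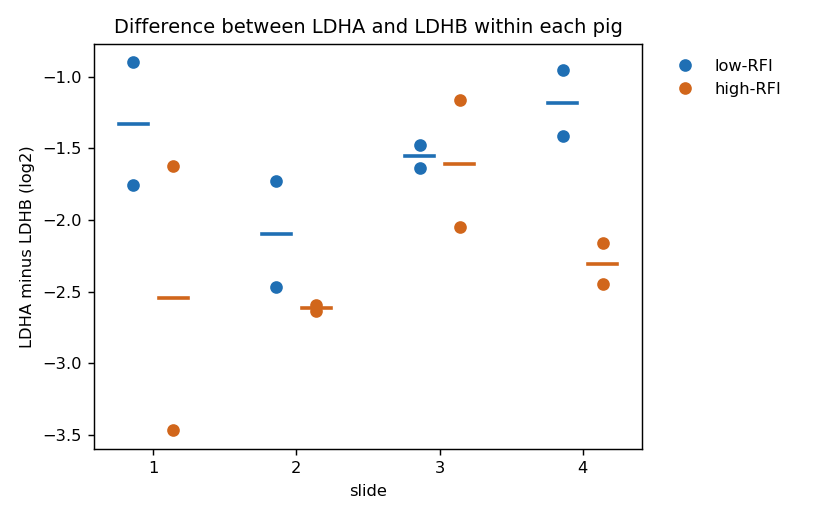
LDHA minus LDHB level within each pig (log2), by slide, with 2 low-RFI pigs (blue) and 2 high-RFI pigs (orange) per slide and a bar at their mean. The low-RFI mean lies above the high-RFI mean on each of the 4 slides, by 1.21, 0.52, 0.05 and 1.12, and pigs of the lines overlap on slides 1 and 3.

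For each enzyme the 2 other named genes with the most similar levels over the 16 pigs were found among 3999 genes, after the mean of each line had been subtracted. They are the top of many comparisons and are given as a description. LDHA went with VDAC2, a channel of the outer mitochondrial membrane, and GDI2, a regulator of Rab proteins (r = 0.93 both). PGK1 went with HSPD1, a mitochondrial chaperonin, and a probe that the file names NUDFV2 (r = 0.94 both). GPI went with FADD, an adaptor of death receptors, and PSAP, the precursor of saposins (r = 0.89 both). TPI1 went with ATP5G1, a subunit of mitochondrial ATP synthase (r = 0.88), and GSTA2, a glutathione S-transferase (r = 0.84). LDHB went with GNAI2, a G protein subunit, and GGTA1, a galactosyltransferase (r = 0.87 both). GAPDH had the least similar partners, C5H12orf29 (r = 0.71) and UBE2W, a ubiquitin-conjugating enzyme (r = 0.70). No 2 of the 6 enzymes shared such a partner.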

How the data were processed

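Total RNA of 16 pig livers, 8 per line, was labelled with Cy3 and hybridised to 1-colour Agilent arrays, 1 per pig. Per the file headers, scans were read with Feature Extraction 10.7.3.1 (protocol GE1_107_Sep09), and the deposited processed signal is a linear intensity, background-subtracted and detrended within its array. The mean and background signals are also deposited as intensity values per the file headers. The authors' series table holds log2 values that equalled the log2 processed signal minus each column's median over 27938 listed spots, which was found by setting it against the scanner files. It was used as an alternative. The submitters' processing notes name R 2.10.0.

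Outlier spots were left out, log2 signals were scaled to each array's 75th percentile and spots of a probe averaged. Of 43603 probes, 30097 were tested, being well above background on at least 8 arrays. Names came from the files and RefSeq's gene table: 11293 probes carried 1 symbol and 32310 none or several. The lines were compared with limma 3.58.1 (lmFit and eBayes) in R 4.3.3 with Benjamini-Hochberg adjustment. Permutation tests and figures used Python 3.11.15, numpy, scipy and matplotlib. The analysis was tested on simulated data. The number of arrays limits the precision.

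The brightest tested probe represents a gene. All 9 enzymes are named, with the called genes or the 3 smallest p of each pathway list and the 2 genes most alike each enzyme. The lists cover other steps of glycolysis, of fructose handling and of the pentose phosphate pathway, and markers of hepatocytes, erythroid cells, muscle, Kupffer cells, T and NK cells, stellate cells and endothelium. Members and lists were chosen with earlier results of these data known. Alternatives covered background correction (normexp, offset 50), scaling, filters, spots, blocks, noise, probe averaging and leaving out each pig. The comparison of LDHA with LDHB, the marker and array relations and the probe position check were added after seeing the data. Some items are not reported here.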

Additional observations from a re-analysis of the deposited data

Results flagged for a closer look

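In high-RFI replicate 6, the probe matched to zebrafish pyruvate kinase of the liver and red cell type, A_72_P340503, had a level of -2.34. The next highest of the 8 high-RFI pigs was -3.11, a gap of 0.560 of the whole range of the line, above Dixon's 95% critical value for 8 samples. This was the only one of 40 groups tested that passed it, where chance alone flags about 1 in 20. The array of this pig also had the most probes well above background and the highest local background, and their part in this level was not tested.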

How the results depend on the processing

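No enzyme probe passed the threshold under any of the 30 alternatives fitted across all probes (settings and left-out pigs). Over all probes the count of 3 was 1 when probes had to be well above background on all 16 arrays, and 2 to 5 without 1 pig. The median change of the 6 enzymes, 0.03, was -0.09 to 0.23 over its 35 alternatives and -0.04 to 0.11 without 1 pig. Under median scaling GPI changed by 0.0029 and TPI1 by 0.035. TPI1, with a change nearest to 0, also turned to 0.00066 with outlier spots kept and to 0.10 with its probes averaged. GAPDH stayed above 0 in all 35 alternatives, and LDHB was below 0 in all but slide 3. The block, variance and filter settings leave a change as it is by design, so they add nothing on its direction. Without 1 pig the changes were -0.12 to 0.058 for GPI, -0.072 to 0.079 for TPI1, -0.058 to 0.15 for PGK1, 0.09 to 0.38 for LDHA and -0.62 to -0.38 for LDHB. The labels do not say that replicate numbers pair the pigs, and they were not used as pairs because 2 of the 8 same-numbered pairs had correlated deviations under 0.1. The correlations were all above 0, at 0.05 to 0.40, and 9 of 16 pigs correlated best with their own number in the other line. Same-numbered pigs also share their series of sample numbers, and those numbered 5 and 8 share a slide. Pairing was not told apart from these. With the replicate block 4 probes of the array and 0 of the enzymes were called. The change of LDHB, -0.47, cannot move under this block, and its limma adjusted p was 0.519. LDHB was lower in the low-RFI pig for 7 of 8 numbers. Unadjusted p under 0.05 rose from 1639 to 2394 probes with the block. That no enzyme probe had an unadjusted p under 0.05 holds for the fit without the block. Such a count for the enzyme probes with the block is not given. The count of 2 correlated pairs was 5 with quantile normalisation or with probes averaged, 7 with median scaling, 1 with cyclic loess, with series-centred levels, in high-RFI pigs alone and without the 2 pigs farthest from the median, 0 with slide-centred levels and in low-RFI pigs alone, and 1 to 3 without 1 pig; the cause was not tested. Among pairs near 0, GPI with PGK1 was -0.075 in low-RFI pigs alone. TPI1 with LDHB was -0.040 with quantile normalisation, -0.0033 with cyclic loess, -0.0064 with series-centred levels, -0.47 in high-RFI pigs alone and -0.16 to 0.19 without 1 pig. PGK1 with LDHB was 0.050 with median scaling, 0.078 in high-RFI pigs alone and -0.25 to 0.045 without 1 pig. LDHA minus LDHB was 0.55 to 0.88 without 1 pig, at an exact permutation p of 0.00715 to 0.0618. It passed 0.05 no longer without low-RFI replicate 2 or 8 or high-RFI replicate 2, 5 or 6.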
